A study of Mus musculus with 6 samples.

Results

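The genes described here encode the contractile and metabolic machinery of the mature muscle fibre, and they were measured in muscle satellite cells with and without the proteasome ATPase Rpt3. The set was a fixed list of 30 genes out of 32275 gene names on the array. For each gene the probe with the highest mean log2 signal over the 6 arrays was taken. The list held 13 genes that mark fast fibres, 6 that mark slow fibres and 11 that both fibre types use. Knockout samples were satellite cells sorted from 3 C57BL6 mice in which Rpt3 (gene Psmc4) was knocked out in these cells, and control samples were satellite cells of 3 control mice of the same strain. For each mouse, total RNA was amplified and the amplified DNA was labelled with Cy3 for 1 array. The age of the mice, the Cre driver, the deleted exons and the genotype of the controls are not given in the sources used here, nor is any shared litter or sorting day.

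Satellite cells are the stem cells of skeletal muscle and lie beside the fibre under its basement membrane. On activation they divide, switch on the myogenic regulators and fuse into fibres, and only then is the sarcomere built. The sarcomere is the repeating unit in which myosin thick filaments pull on actin thin filaments, and the troponin complex on the thin filament makes that pull depend on calcium. Fast and slow fibres use different gene copies for most of these parts, so a fast and a slow form of troponin, of myosin and of its light chains can be read side by side.

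The share of probes well above background was 58.4%, 52.0% and 44.3% in knockout 1, 2 and 3, against 53.9%, 53.4% and 53.5% in control 1, 2 and 3. Knockout 1 and 2 lay in slide row 1, and knockout 3 and all controls in slide row 2, so slide row could be separated from genotype only through knockout 3. Psmc4 had a log2 signal of 2.05, 2.07 and 1.54 in knockout 1, 2 and 3, against 2.93, 2.61 and 2.87 in control 1, 2 and 3, without overlap (limma, adjusted p = 0.423). Where its probe lies relative to the deleted part is not given in the sources used here. All satellite cell markers on the list, 15 of 15, were above background on at least 1 array. So were the listed markers of endothelial cells (10 of 10), macrophages (12 of 12) and neutrophils (11 of 11), so this count does not set satellite cells apart. The lineage regulator Myod1 lay between 4.17 and 4.50 in knockout and between 4.13 and 4.50 in control cells, and Pax7, the defining satellite cell factor, was above background on 2 of 3 knockout and 3 of 3 control arrays. Myf5, another myogenic regulator of these cells, was not well above background on any knockout array, at -3.21, -3.80 and -3.77, against -2.11, -1.20 and -1.56 in control 1, 2 and 3, all above background. Its groups did not overlap, and the difference of -1.97 (SE 0.30) had an adjusted p of 0.191 by limma. Of the 15 satellite cell markers, 0 were higher and 4 were lower at an unadjusted p under 0.05, and 0 were called after adjustment. Over all tested features 2.83% were higher and 4.23% lower without adjustment, and 0% were called after it.

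Each signal is the log2 of what the scanner software gave after processing, less the 75th percentile of its own array, so a value of 0 is that percentile. Different probes bind with different strength, so a level says nothing about another gene's level. The 4 probes printed here, each of 60 bases, were those of tested members whose mm9 coordinates span more genome than the probe is long. Each therefore crosses a splice junction and reads spliced transcript. They are in lower case because no position is singled out.
Tnnt3 probe, chr7:149698500-149700262, plus strand: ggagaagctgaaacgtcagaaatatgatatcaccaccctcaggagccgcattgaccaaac
Tnnc1 probe, chr14:32023360-32023776, plus strand: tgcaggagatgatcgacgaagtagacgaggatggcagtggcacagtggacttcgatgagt
Ryr1 probe, chr7:29788789-29789487, minus strand: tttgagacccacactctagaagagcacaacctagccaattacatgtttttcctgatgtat
Pgam2 probe, chr11:5701822-5703040, minus strand: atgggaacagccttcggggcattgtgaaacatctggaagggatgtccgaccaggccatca

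No gene of the set passed the test for a difference between knockout and control cells. Of the 30 genes, 15 were well above background on all 6 arrays, 10 on some arrays and 5 on none. Testing required a probe above background in every sample of the knockout or of the control group, which 18 genes met. With limma and an adjusted p threshold of 0.05, 0 of these 18 rose and 0 fell, where 0% of all 19298 tested features rose and 0% fell. Without adjustment it was also 0 of 18, beside 2.83% of all features higher and 4.23% lower, or 7.06% in either direction. The smallest adjusted p of a member was 0.829. Groups did not overlap in 1 tested gene that was higher in the knockout, Tnnc1, and in 1 that was lower, Mybpc1. Over all features these shares were 5.09% higher and 5.62% lower. Among the 12 untested genes Xirp2 was higher and Casq1 lower without overlap. The median log2 difference over all 30 genes was -0.0035, knockout minus control, beside 0.044 over all tested features.

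**Figure D1:**
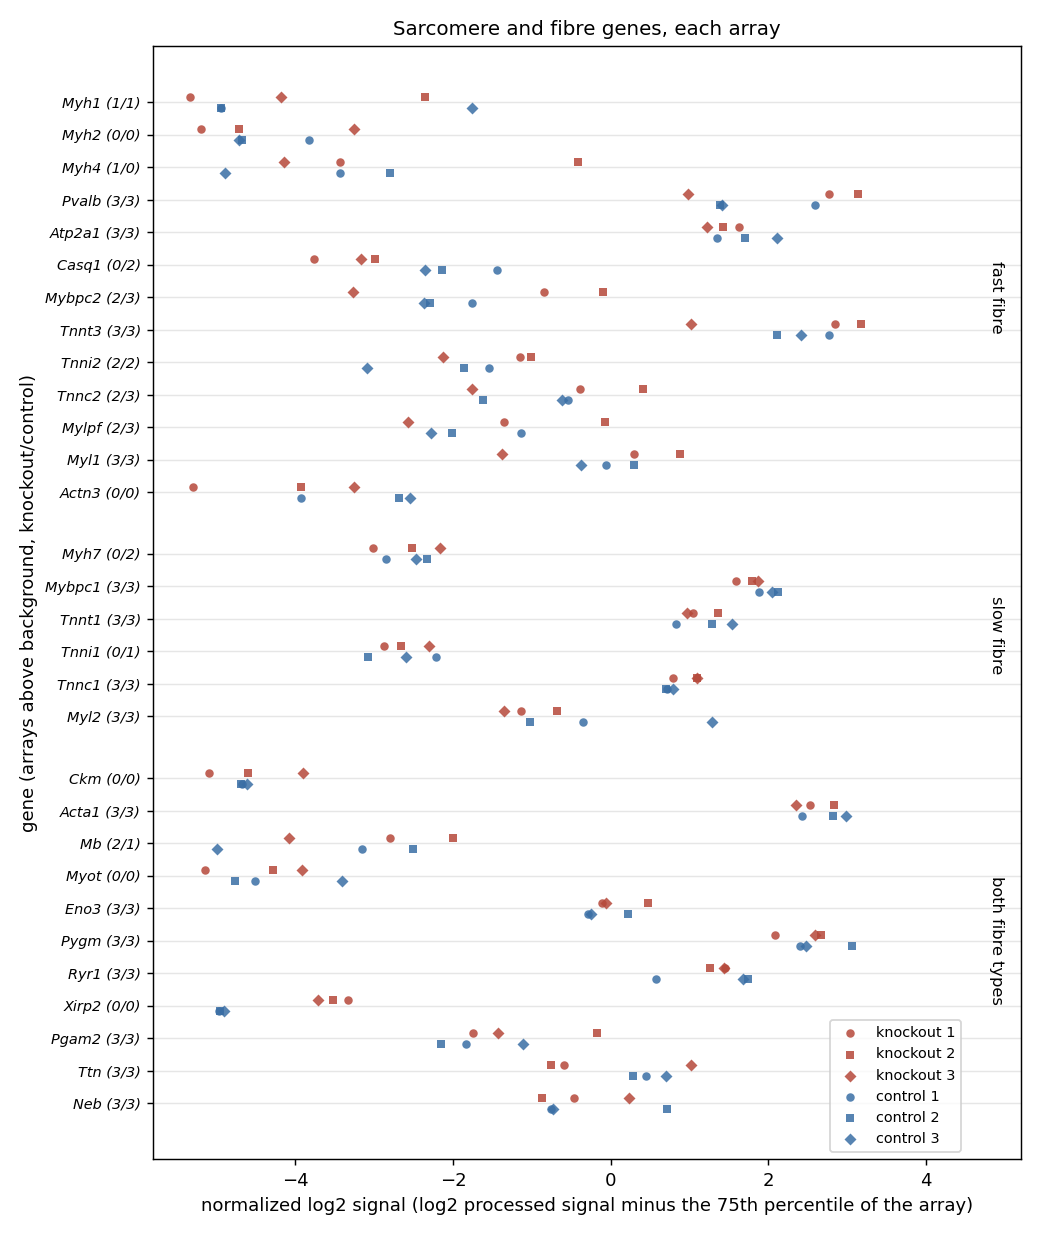
Normalized log2 signal (x axis) of each of the 30 genes (y axis) on every array, with knockout arrays as red symbols above the blue control symbols of the same gene. The numbers after each gene are the arrays above background in knockout and control cells, and the groups overlap in 26 of the 30 genes.

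Among the parts of the thick filament, the fast light chains and the fast binding protein varied widely between knockout arrays. Myl1, the fast essential light chain of myosin, had 0.30, 0.88 and -1.38 in knockout 1, 2 and 3, against -0.05, 0.29 and -0.38 in control 1, 2 and 3. Knockout 2 was the highest array and knockout 3 the lowest, with all controls between them. Its log2 difference was -0.02 with an SE of 0.54 (limma, adjusted p = 0.998; 95% interval -1.27 to 1.23). A second Myl1 probe was above background on knockout 2 alone. Mylpf, the fast regulatory light chain, had -1.36, -0.07 and -2.56 in the knockout samples, against -1.13, -2.01 and -2.28 in the controls. The order within the knockout samples was that of Myl1, and the difference was 0.48 (SE 0.60, limma, adjusted p = 0.981). Mybpc2, the fast myosin binding protein C, which holds the thick filament in register, had -0.84, -0.09 and -3.27 in knockout, against -1.76, -2.29 and -2.37 in control cells. Knockout 1 and 2 lay above every control and knockout 3 below every control, where its probe was also not above background, and the difference was 0.74 (SE 0.73, limma, adjusted p = 0.974).

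The slow parts of the thick filament were Mybpc1, Myl2 and the heavy chain gene Myh7. Mybpc1, the slow form of binding protein C, had 1.59, 1.79 and 1.87 in knockout 1, 2 and 3, against 1.88, 2.13 and 2.05 in control 1, 2 and 3. Every knockout value lay below every control value, though knockout 3 and control 1 nearly touched, and the difference was -0.27 (SE 0.21, limma, adjusted p = 0.947). A second Mybpc1 probe, also above background on all 6 arrays, had -2.11, -0.20 and -0.31 in knockout, against -0.51, -1.08 and 0.81 in control cells. It spread far more between mice than the first probe and differed by -0.61 with overlapping groups. Myl2, the regulatory light chain of slow and cardiac muscle, had -1.14, -0.68 and -1.36 in knockout, against -0.35, -1.02 and 1.28 in control cells. Control 3 stood above all other arrays, and the difference of -1.03 (SE 0.55, limma, adjusted p = 0.829; 95% interval -2.29 to 0.24) was -0.37 without it. A second Myl2 probe, above background on 1 of 3 knockout and 2 of 3 control arrays, differed by -0.16.

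The myosin heavy chains, the motor proteins that define each fibre type, were near or below background in the sorted cells. Myh4, the heavy chain of the fastest fibres, was above background on knockout 2 alone, at -0.41, with -3.43 and -4.15 in knockout 1 and 3. In control 1, 2 and 3 it stood at -3.43, -2.80 and -4.89, not well above background. Its knockout mean was at least 1.08-fold higher, a bound set against the lowest signals that count as above background. It rests on knockout 2, and without that array the measured difference was -0.08. Myh1, the heavy chain of the intermediate fast fibres, was above background on knockout 2 (-2.36) and on control 3 (-1.76), and on no other array. Myh2, of the oxidative fast fibres, was above background on 0 arrays. Myh7, the slow heavy chain, was above background on 0 of 3 knockout and 2 of 3 control arrays. Its groups overlapped with a difference of -0.019, whose sign differed in 8 of 15 alternatives, so no direction is given.

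In the thin filament the tested fast troponins, Tnnt3 and Tnnc2, followed the fast light chains. Tnnt3, the fast tropomyosin-binding subunit, had 2.85, 3.18 and 1.02 in knockout 1, 2 and 3, against 2.77, 2.11 and 2.41 in control 1, 2 and 3. Knockout 2 was highest and knockout 3 lowest, and the group means of 2.35 ± 1.16 and 2.43 ± 0.33 (SD, n = 3 each) differed by -0.08 (SE 0.54, limma, adjusted p = 0.990). Its second probe gave the same order within the knockout samples, with 0.80, 1.17 and -0.85, against 0.66, 0.24 and 0.23 in the controls. Tnnc2, the fast calcium-binding subunit, had -0.39, 0.42 and -1.76 in knockout, against -0.54, -1.61 and -0.61 in control cells, with a difference of 0.34 (SE 0.55, limma, adjusted p = 0.981). Tnni2, the fast inhibitory subunit, was above background on 2 of 3 arrays in each group and was not tested. It stood at -1.14, -1.01 and -2.13 in knockout, against -1.54, -1.87 and -3.09 in control cells. Its order within the knockout samples was the same, but control 3, not knockout 3, was its lowest array.

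The tested slow troponins spread less between the knockout arrays than the tested fast ones. Tnnc1, the slow and cardiac calcium-binding subunit, had 0.79, 1.09 and 1.09 in knockout 1, 2 and 3, against 0.72, 0.71 and 0.79 in control 1, 2 and 3. The groups did not overlap, but knockout 1 and control 3 nearly touched, and the difference of 0.26 (SE 0.20, limma, adjusted p = 0.953; 95% interval -0.22 to 0.73) did not pass. Tnnt1, the slow tropomyosin-binding subunit, had 1.05, 1.36 and 0.97 in knockout, against 0.83, 1.28 and 1.54 in control cells, and differed by -0.09 (SE 0.26, limma, adjusted p = 0.981). A second Tnnt1 probe, above background on 3 of 3 knockout and 1 of 3 control arrays, differed by 0.36. Tnni1, the slow inhibitory subunit, was above background on control 1 alone. Acta1, the skeletal muscle actin that forms the thin filament, lay between 2.35 and 2.83 in knockout and between 2.43 and 2.99 in control cells, a difference of -0.18 (SE 0.25, limma, adjusted p = 0.981). Actin genes share most of their coding sequence, and binding of other actin transcripts to this probe was not tested. Neb, the giant ruler protein of the thin filament, had -0.47, -0.87 and 0.23 in knockout, against -0.76, 0.72 and -0.73 in control cells, with overlapping groups. A second Neb probe differed by -0.26. Another, above background on 1 of 3 knockout and 3 of 3 control arrays, differed by -1.07.

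Of the scaffold genes, only Ttn was measured above background. Ttn encodes titin, the giant spring that spans the sarcomere from Z disc to midline. It had -0.59, -0.76 and 1.02 in knockout 1, 2 and 3, against 0.45, 0.29 and 0.71 in control 1, 2 and 3. Here knockout 3 was the highest of all arrays and knockout 1 and 2 the lowest, the reverse of the fast light chains. The difference was -0.59 (SE 0.46, limma, adjusted p = 0.95), and -1.15 without knockout 3. The other 3 Ttn probes were above background on at most 1 array. Actn3, the fast Z disc crosslinker, Myot, or myotilin, and Xirp2, an actin-binding protein of the Z disc region, were above background on 0 arrays. The dim Xirp2 probe read -3.34, -3.52 and -3.71 in knockout, against -4.97, -4.96 and -4.90 in control cells. The groups did not overlap, but no value was above background, so no fold is given, and with normexp background correction the difference was 0.13.

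The calcium handling genes were mixed. Pvalb encodes parvalbumin, the calcium buffer of the fastest fibres. It had 2.77, 3.14 and 0.98 in knockout 1, 2 and 3, against 2.60, 1.39 and 1.41 in control 1, 2 and 3. Knockout 1 and 2 were the highest arrays and knockout 3 the lowest, and the difference was 0.50 (SE 0.59, limma, adjusted p = 0.981). A second Pvalb probe had 0.15, -0.05 and -1.32 in knockout, against -0.59, -0.60 and -3.76 in control cells. Atp2a1, the calcium pump of the fast fibre reticulum, had 1.63, 1.42 and 1.23 in knockout, against 1.34, 1.70 and 2.11 in control cells. It differed by -0.29 (SE 0.26, limma, adjusted p = 0.964), and unlike the other tested fast genes it was not high in knockout 2. Casq1, the calcium store protein of fast fibres, was not well above background on any knockout array, at -3.76, -2.98 and -3.17. In control cells it stood at -1.44, -2.15 and -2.36 and was above background on 2 of 3 arrays, so it was not tested. Its groups did not overlap, and by processed signal it was at least 1.74-fold lower in the knockout. This bound includes the control array not above background. With normexp background correction the log2 difference was only -0.18, so the bound depends on the background correction. Ryr1, the calcium release channel, had 1.45, 1.26 and 1.43 in knockout, against 0.58, 1.74 and 1.69 in control cells, a difference of 0.05 (SE 0.33, limma, adjusted p = 0.991).

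The tested genes of energy supply overlapped between groups. Pygm, the muscle glycogen phosphorylase, lay between 2.09 and 2.66 in knockout and between 2.40 and 3.06 in control cells (difference -0.20, SE 0.27, limma, adjusted p = 0.981). Eno3, the muscle enolase of glycolysis, lay between -0.10 and 0.48 in knockout and between -0.28 and 0.22 in control cells (difference 0.21, SE 0.26, limma, adjusted p = 0.981). Pgam2, the muscle phosphoglycerate mutase, had -1.74, -0.17 and -1.42 in knockout, against -1.84, -2.15 and -1.11 in control cells. Knockout 2 was again the highest array, and the difference was 0.59 (SE 0.45, limma, adjusted p = 0.946). Mb, the oxygen carrier myoglobin, was above background on 2 of 3 knockout and 1 of 3 control arrays. Ckm, the muscle creatine kinase and a classic product of differentiated fibres, was above background on 0 arrays.

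**Figure D2:**
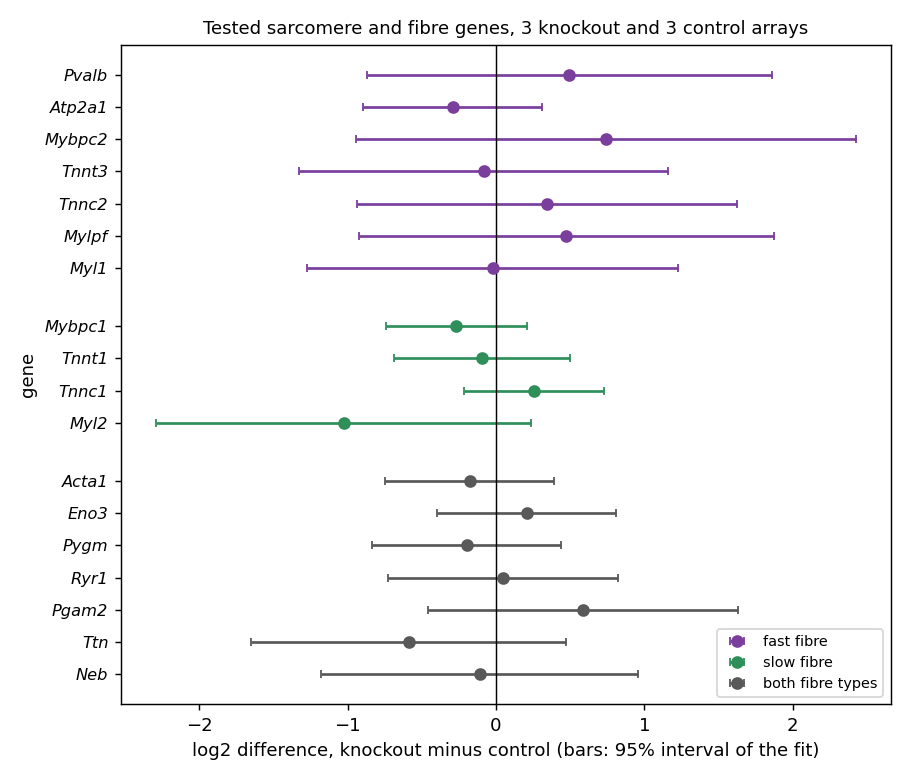
Log2 difference, knockout minus control (x axis), of the 18 tested genes (y axis), with points for the estimates and bars for the 95% interval of the limma fit, coloured by fibre type. Every interval includes 0, and the intervals of Mybpc1, Tnnt1 and Tnnc1 are narrower than those of the fast genes other than Atp2a1.

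Neither the fast nor the slow genes held a call by genotype. Over the 13 fast genes the median log2 difference was 0.012, and over the 6 slow genes it was -0.056. The fast median was 0.63 without knockout 3 and -0.76 for knockout 3 alone against the controls, which is also the value with slide row as a block. The slow median was -0.18 without knockout 3 and 0.09 for knockout 3 alone. Among the tested genes, 4 of 7 fast and 1 of 4 slow genes had a higher mean in the knockout, and 0 passed.

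Of the tested fast genes, all but Atp2a1 varied widely among the knockout arrays and less among the controls. Within groups the median SD of the 7 tested fast genes was 0.89, against 0.21 for the 4 tested slow genes. It was 0.47 for the 7 tested genes of both fibre types and 0.34 over all tested features. Mybpc2, with 1.20, varied more than 98.7% of all features, and Tnnc1, with 0.13, more than 4.77% of them. Others went the opposite way: the fast gene Atp2a1, with 0.30, varied more than 42.7% of features, and the slow gene Myl2, with 0.87, more than 94.97%. For the tested genes of both fibre types this share ranged from 33.5% (Acta1) to 90.5% (Neb). All 7 tested fast genes were lowest on knockout 3, as were 1 of 4 slow genes, 1 of 7 genes of both fibre types and 26.3% of all features. Of the 6 untested fast genes, 0 were lowest on knockout 3. Mybpc2, Tnnc2 and Mylpf passed the filter only through the controls, being above background on 2 of 3 knockout arrays, so the filter favours such an order for them. The other 4, Pvalb, Atp2a1, Tnnt3 and Myl1, were above background on all 6 arrays. Of the 7 tested fast genes, 6 were highest on knockout 2, as were 15.4% of all features. Knockout 3 also had the lowest share of probes above background, and of the 13 fast genes 8, 10 and 4 were above background in knockout 1, 2 and 3, against 9, 9 and 8 in control 1, 2 and 3. The part of this detection in the pattern was not tested. Knockout 1 and 2 lay in slide row 1 and knockout 3 in slide row 2. Within the knockout, slide row and mouse therefore cannot be told apart.

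**Figure D3:**
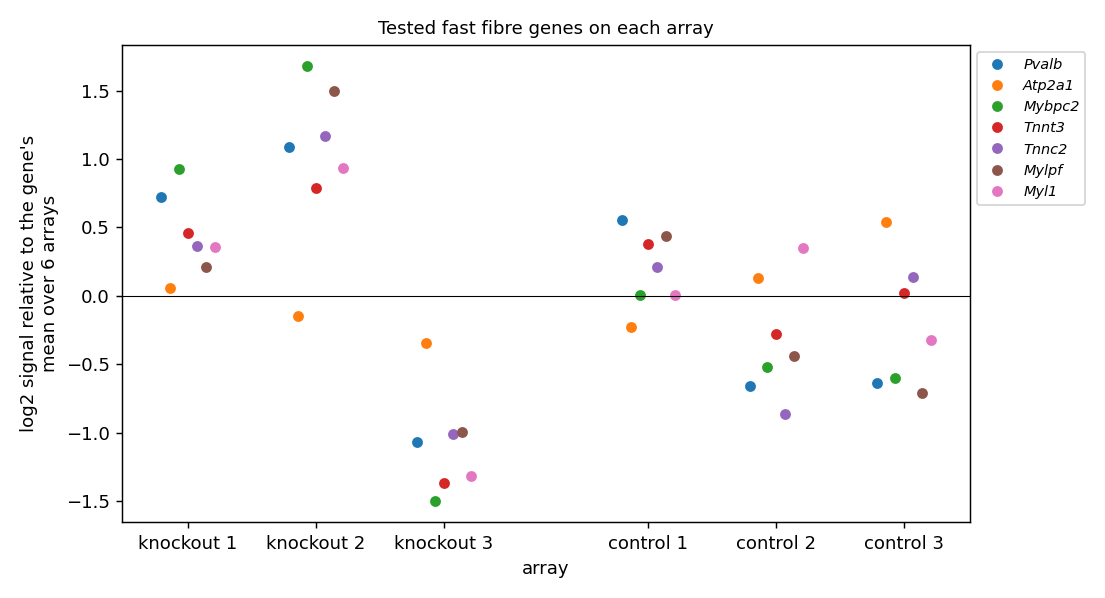
Log2 signal relative to each gene's mean over the 6 arrays (y axis) for the 7 tested fast genes (colours) on each knockout and control array (x axis). All 7 genes lie above 0 on knockout 1 and below 0 on knockout 3, and on knockout 2 all but Atp2a1 lie above 0.

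Relative to each gene's own mean, the median of the 7 tested fast genes stood at 0.36, 1.09 and -1.07 on knockout 1, 2 and 3, against 0.21, -0.44 and -0.32 on control 1, 2 and 3. With quantile normalization it was 0.39, 1.04 and -1.05 on the knockout arrays, and with normexp background correction 0.17, 0.58 and -0.35, so the order held at a smaller size. The median of the 4 slow genes seen on all arrays lay between -0.21 and 0.05 in knockout and between -0.08 and 0.27 in control cells, though Myl2, one of the 4, varied far more than this median. The 7 genes of both fibre types seen on all arrays stood at -0.15, 0.12 and 0.05 on knockout 1, 2 and 3. On control 1, 2 and 3 they stood at -0.28, 0.22 and 0.30. The 32 tested genes of a wider fibre list, described below, stood at -0.03, 0.08 and 0.12 in knockout. In control cells they stood at -0.14, -0.01 and 0.10. Neither set was lowest on knockout 3. In bulk RNA, fewer fibre-like cells or fragments in a sort and less fibre RNA per cell cannot be told apart.

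Markers of some other cells were likewise higher on knockout 1 and 2 than on knockout 3. The 10 measured of 10 endothelial markers had a median of 0.50, 0.65 and -0.72 on knockout 1, 2 and 3, against 1.15, -0.50 and -0.97 on control 1, 2 and 3. Their summed log2 signal ranged from 5.03 to 6.38 in knockout and from 4.96 to 6.78 in control cells, led by Cdh5, the cadherin of vessel walls. All 10 had a higher mean in the knockout, and 0 were called. The 5 tested of 11 neutrophil markers stood at 0.68, 0.64 and -0.68 in knockout, against -0.0034, -0.69 and -0.50 in control cells. Their summed signal, at 9.20 to 9.84 in knockout and 9.37 to 9.45 in control cells, followed the probe of Csf3r, which was highest on knockout 3. All 5 had a higher mean in the knockout, and 0 were called. Only 2 of the 11 were above background on all 6 arrays, and passing the filter through 1 group can favour that group. The 7 glial markers stood at 0.40, 0.15 and -0.58 in knockout, against 0.30, -0.11 and -0.14 in control cells. The part of these cells in the fast gene pattern was not tested.

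**Figure D4:**
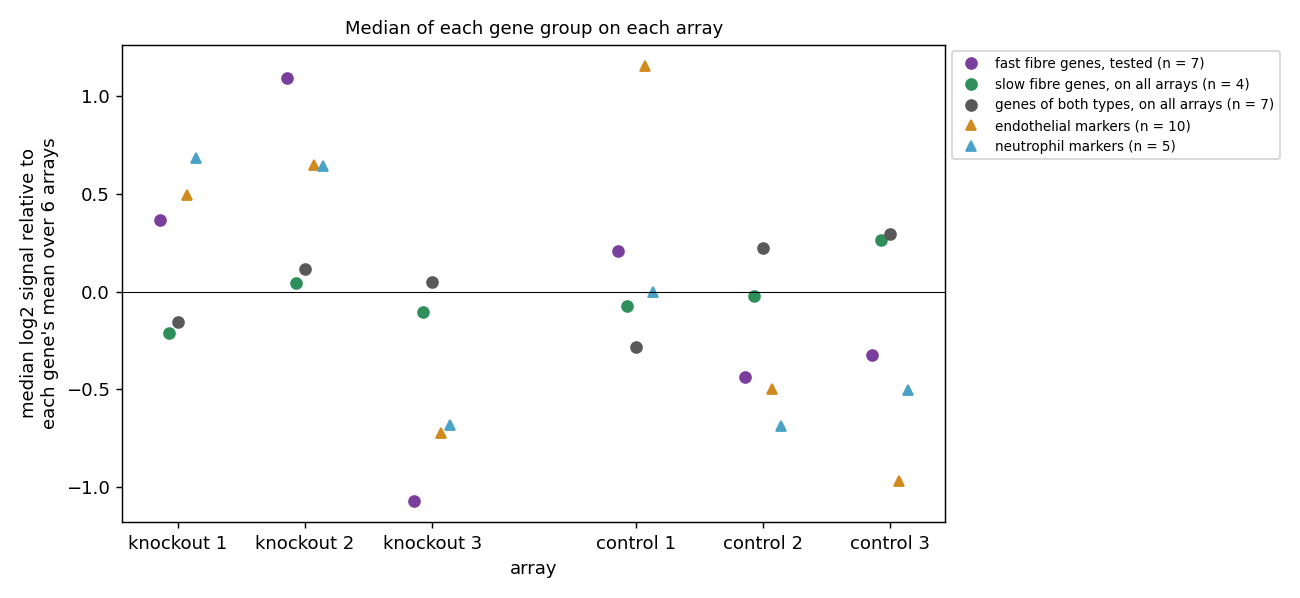
Median log2 signal relative to each gene's mean over the 6 arrays (y axis) for fast, slow and shared fibre genes (circles) and for endothelial and neutrophil markers (triangles) on each array (x axis). Fast genes and both marker groups are above 0 on knockout 1 and 2 and below 0 on knockout 3, control 2 and control 3.

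By their medians, the remaining marker lists varied less across arrays. The 15 satellite cell markers stood at -0.04, -0.01 and -0.40 in knockout, against -0.03, 0.30 and 0.31 in control cells, with a summed signal of 7.28 to 7.49 in knockout and 7.62 to 7.99 in control cells. The 12 fibro-adipogenic markers stood at 0.06, -0.0037 and -0.37 in knockout, against 0.10, -0.07 and 0.17 in control cells, with a summed signal of 9.05 to 9.17 in knockout and 9.31 to 9.95 in control cells. The 9 macrophage markers tested of 12 lay between -0.12 and 0.05 in knockout and between -0.19 and 0.07 in control cells. The summed signal of the 12 was 9.51, 9.85 and 10.29 on knockout 1, 2 and 3, against 9.70 to 9.73 in control cells. It followed the probe of Itgam, at 9.43, 9.79 and 10.25 in knockout. Smooth muscle markers, 9 of 9, lay between -0.09 and 0.16 in knockout and between -0.17 and 0.03 in control cells. Of 10 red blood cell markers 3 were tested, with a median of -0.17, 0.49 and 0.38 in knockout, against -0.06, -0.07 and -0.36 in control cells. Hba-a1, a haemoglobin chain, varied far more than this median, at 3.10, 2.74 and 2.07 in knockout, against 1.64, 0.61 and 0.03 in control cells. Its groups did not overlap (difference 1.88, limma, adjusted p = 0.366). The brighter Ermap differed by 0.15 with overlapping groups.

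A wider list of 60 sarcomere and fibre genes outside the set also held no call. Of these, 32 were tested, 21 had a higher and 11 a lower mean in knockout cells, and 0 rose and 0 fell. The median difference was 0.098, beside 0.044 over all features. Mylk2, the kinase of the skeletal myosin light chain, had 0.05, 0.59 and 0.72 in knockout, against -2.16, -0.34 and -0.12 in control cells. Its groups did not overlap, and the difference of 1.32 (SE 0.52, limma, adjusted p = 0.659) was the list's smallest p. Sgca, a sarcoglycan of the fibre membrane (difference 0.46), and Cox6a2, a muscle subunit of respiratory complex IV (0.72), did not pass. Ampd1, the muscle AMP deaminase (-0.87), Phkg1, the catalytic subunit of muscle phosphorylase kinase (-0.79), and Cox7a1, another muscle respiratory subunit (-0.53), did not pass either.

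Genes of the step before the mature fibre were uneven among controls. Myog, the regulator that starts terminal differentiation, had -1.07, -0.48 and -1.06 in knockout 1, 2 and 3, against -0.59, 2.95 and 4.12 in control 1, 2 and 3. Control 2 and 3 stood far above the other arrays (difference -3.03, SE 1.04, limma, adjusted p = 0.584). Chrna1, a subunit of the acetylcholine receptor, lay between -0.10 and 0.66 in knockout and between 1.38 and 2.88 in control cells, without overlap (difference -1.68, SE 0.41, limma, adjusted p = 0.384). Chrng, the fetal receptor subunit, differed by -0.66, also without overlap, and was above background on 2 of 3 knockout arrays. Knockout 3, at -2.13, and control 2, at -2.08, nearly touched. Chrng, the perinatal heavy chain gene Myh8 (0.02) and the embryonic light chain gene Myl4 (0.36) did not pass. Of 12 genes on this list 6 were tested, with a median difference of -0.45. At an unadjusted p under 0.05 (limma), 0 of these were higher and 2 lower. Over all features the shares were 2.83% and 4.23%. Control 3 had the highest signal of both Myog and Myl2, and also of Acta1, Tnnt1 and Atp2a1. Control 2 was high in Myog, but its Myl2 signal of -1.02 lay below the -0.35 of control 1.

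Upstream sequences were compared for what the members share beyond their function. RefSeq promoter windows of build GRCm38.p6 were found for 25 of the 30 genes, 31 windows in all, and the 250 bases before each start were read on both strands. The E-box CANNTG, bound by the myogenic regulators, was in 87.1% of the members' windows and in 66.2% of all 32851 windows. The MEF2 site was in 19.4% against 2.92%, the CArG box of serum response factor in 6.45% against 1.47%, and TATAAA in 19.4% against 12.4%. In 2 member windows TATAAA overlapped a MEF2 site. Of 11 windows of fast genes 3 held a MEF2 site, and of 9 windows of slow genes 0 did. The 4 windows printed, with the motifs in capitals, belong to 2 fast genes that were low on knockout 3, to the even slow gene Tnnc1 and to Acta1. Of these motifs the fast windows hold E-boxes alone, as does that of Tnnc1, and Acta1 also holds a CArG box and TATAAA.
Mylpf promoter, chr7:127211358-127211607, plus strand: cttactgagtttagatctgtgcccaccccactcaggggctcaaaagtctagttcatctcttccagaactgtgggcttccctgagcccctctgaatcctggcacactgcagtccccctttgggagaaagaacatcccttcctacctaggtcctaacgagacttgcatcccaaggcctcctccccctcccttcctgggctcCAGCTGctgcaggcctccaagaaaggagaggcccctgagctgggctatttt
Tnnc2 promoter, chr2:164779735-164779984, minus strand: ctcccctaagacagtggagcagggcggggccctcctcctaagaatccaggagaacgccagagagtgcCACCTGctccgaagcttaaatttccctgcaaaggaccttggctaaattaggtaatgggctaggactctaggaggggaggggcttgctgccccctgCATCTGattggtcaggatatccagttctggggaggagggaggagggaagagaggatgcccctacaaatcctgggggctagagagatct
Tnnc1 promoter, chr14:31208062-31208311, plus strand: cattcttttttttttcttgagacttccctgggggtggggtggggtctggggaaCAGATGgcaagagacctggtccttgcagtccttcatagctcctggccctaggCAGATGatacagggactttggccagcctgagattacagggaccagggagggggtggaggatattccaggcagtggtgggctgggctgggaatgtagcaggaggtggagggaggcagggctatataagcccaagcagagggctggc
Acta1 promoter, chr8:123894776-123895025, minus strand: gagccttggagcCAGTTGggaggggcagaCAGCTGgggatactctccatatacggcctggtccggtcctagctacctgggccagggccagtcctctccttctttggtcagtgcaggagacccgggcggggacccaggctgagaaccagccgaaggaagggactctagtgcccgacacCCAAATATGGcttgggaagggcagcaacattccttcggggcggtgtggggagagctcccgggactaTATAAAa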

How the data were processed

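RNA of sorted satellite cells from 3 knockout and 3 control mice was hybridized to 1-colour Agilent arrays. The scanner files hold linear intensity. Per the file headers, background subtraction and detrending of each array came from Feature Extraction 10.7.1.1, whereas 9.5.1.1 stands in the submitters' processing notes. The authors' deposited value table holds linear intensity, where every column has the median 17.7 and the upper quartile 83.8, the pattern of quantile normalization; any scaling before that is not given in the sources used here. Its columns rank probes as the scanner files of the same sample do, with Spearman's rho at or above 0.9999 across probes.

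Processed signals were put on a log2 scale, and each array's 75th percentile was subtracted. Control spots and outlier spots were left out, spots of a probe were averaged, and a probe counted as above background where no more of its spots fell short than passed. No spot was saturated. Probes above background in every sample of either group, 26109 of 55681, were tested, with the brightest probe for each name. The accessions of 27235 probes matched a gene table of GRCm38.p6, and 2838 probes took a current symbol; 2744 probes with no gene name stayed as features of their own. The comparison used limma 3.58.1 (lmFit, then eBayes; R 4.3.3) and Benjamini-Hochberg adjustment over 19298 features. An exact permutation test cannot go below 0.1 with 3 arrays against 3. The median SE of a log2 difference was 0.27; for arrays their number limits the precision. The p-values measure the spread between these mice. The fit was tested on simulated data, with 3 arrays in each group and 200 changed features. There it called 10.8% of log2 changes of 1, 62% of changes of 2 and 84.8% of changes of 3. Most changes of 1 were thus missed. Named outside the set were Psmc4, Pax7, Myf5, Myod1 and Myog, from the lists of other sarcomere genes and early differentiation genes the 3 tested genes of lowest p among the higher and among the lower, and of other cell types the 2 brightest markers; some are not reported. The members and lists were chosen with earlier results of these data known. Promoter windows are RefSeq's, and probe coordinates are those of the files, on mm9. Figures were drawn with matplotlib 3.10.9.

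Alternatives tried were normexp (offset 50), quantile normalization, median scaling, the deposited table, dim probes unfiltered or required on all 6 arrays, outlier flags kept, the mean of probes, trended robust moderation, the replicate number or slide row as a block, slide row 2 alone, and each array left out.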

Additional observations from a re-analysis of the deposited data

How the results depend on the processing

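Under every alternative run, 0 of the 30 genes were called. Over all features 0 were called, and 1 with quantile normalization, 2 with median scaling, 1 in the deposited table and 41 within slide row 2, where knockout 3 stood alone against the controls and is assumed to vary like them. With the replicate block 0 features were called. The correlation of same-numbered deviations was 0.07, -0.02 and 0.09, and the highest of the other pairs was 0.03. With 3 arrays in each group, this cannot settle whether same-numbered samples share more than a number. Slide row 2 alone, and the fit that blocks on slide row, gave the same medians: the median log2 difference was -0.17 over all 30 genes and -0.76 over the fast genes, and the fast minus slow median was -0.85; these rest on knockout 3 alone. Leaving out each array in turn, 0 to 0 features and 0 to 0 members were called. The medians then ranged from -0.12 (without knockout 2) to 0.18 (without knockout 1) over all genes, from -0.15 to 0.63 over fast genes, from -0.23 to 0.048 over slow genes, and from -0.028 to 0.81 for fast minus slow, with the cause not tested. Of the 30 genes, 10 had another sign with slide row as a block, and 2 with normexp. With normexp 3 differences moved by more than the spread between replicates, those of Casq1 (-0.18), Xirp2 (0.13) and Actn3 (-0.12), all dim probes.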
